A study of Mus musculus with 3 samples.

Results

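Small nuclear RNAs (snRNAs) are short non-coding RNAs, most of which form the core of the spliceosome. This account covers every position that the authors labelled snRNA in a list of RNA positions from an iCLIP experiment on ZFP36L1 in mouse thymocytes. The label alone chose the members, and each position was weighted by the size of its deposited count. It gave 1441 positions in 275 genes, of 462392 positions in the list, and their counts summed to 6162 of 814493. That is 0.757% of all counts (95% Wilson interval 0.738 to 0.776) and 0.312% of all positions (0.296 to 0.328). Intervals here cover counting error only.

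The list comes from iCLIP, in which ultraviolet light fixes a protein to the RNA it touches and the end of the cDNA marks the place to the base. Thymocytes of C57BL/6JBabr mice, described as total naive thymocytes, were irradiated intact, and a Brf1/2 antibody (older names of ZFP36L1 and ZFP36L2) pulled down the complexes. The 3 libraries were WT 1, WT 2 and a single library of DCKO cells, a double conditional knockout of Zfp36l1 and Zfp36l2 with no Cre driver named in the labels. Each position has a single count without a library of origin, so counts from the DCKO library, background signal included, may be among them. No comparison between genotypes was possible for that reason, and every value is given without a replicate error or a test.

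In the major spliceosome, U1 recognises the 5′ splice site, U2 the branch point, and U4, U5 and U6 join as a tri-snRNP in which U6 later forms the catalytic core. U11, U12, U4atac and U6atac take the places of U1, U2, U4 and U6 for a rare group of introns, and U7 is not spliceosomal but serves the processing of histone mRNA 3′ ends. Most of these RNAs carry an Sm site, a uridine-rich stretch held by a ring of Sm proteins, whereas U6 and U6atac bind LSm proteins at their 3′ ends. The genome carries many copies of most of them, pseudogenes included. ZFP36L1 itself is known for binding AU-rich elements in mRNA 3′ UTRs and promoting decay.

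Copies with the highest summed count in their class are shown for U1, U2, U4, U11, U12 and U7, together with Gm22710, since they carry the positions described further on. Bases come from the RefSeq genome (GRCm38.p6) at GENCODE vM21 gene coordinates, written 5′ to 3′ as DNA. Capitals mark each base that held at least 5% of the counts of its gene. Gm22513 is a U1 copy at chr12:54696782-54696945 on the plus strand, and its 3 capitals held 620 of 890 counts. Gm25939 is a U2 copy at chr1:72255008-72255198 on the plus strand, and Gm24265 a U4 copy at chr5:115489459-115489599 on the plus strand. Rnu11 lies at chr4:132270080-132270213 on the minus strand, Rnu12 at chr15:83149644-83149794 on the plus strand and Rnu7 at chr6:124741225-124741286 on the minus strand. Gm22710, at chr1:118459141-118459265 on the minus strand and opposite to Clasp1, matched none of the class references and is left without a class. No reference for U4atac was used, so no gene could be given that class.
Gm22513: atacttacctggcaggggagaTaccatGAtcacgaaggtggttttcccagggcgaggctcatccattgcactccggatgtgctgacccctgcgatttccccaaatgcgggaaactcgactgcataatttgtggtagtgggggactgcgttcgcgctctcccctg
Gm25939: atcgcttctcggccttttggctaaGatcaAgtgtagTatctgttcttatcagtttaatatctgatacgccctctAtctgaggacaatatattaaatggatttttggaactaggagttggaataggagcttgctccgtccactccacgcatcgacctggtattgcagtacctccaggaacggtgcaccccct
Gm24265: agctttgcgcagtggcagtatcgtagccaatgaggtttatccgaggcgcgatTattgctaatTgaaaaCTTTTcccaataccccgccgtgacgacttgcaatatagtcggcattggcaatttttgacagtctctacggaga
Rnu11: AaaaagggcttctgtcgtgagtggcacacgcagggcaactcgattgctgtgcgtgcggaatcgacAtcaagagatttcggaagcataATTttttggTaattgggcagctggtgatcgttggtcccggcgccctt
Rnu12: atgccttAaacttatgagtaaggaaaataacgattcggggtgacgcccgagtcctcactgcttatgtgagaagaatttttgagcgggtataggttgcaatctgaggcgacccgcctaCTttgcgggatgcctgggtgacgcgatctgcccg
Rnu7: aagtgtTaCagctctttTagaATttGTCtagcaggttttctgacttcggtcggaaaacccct
Gm22710: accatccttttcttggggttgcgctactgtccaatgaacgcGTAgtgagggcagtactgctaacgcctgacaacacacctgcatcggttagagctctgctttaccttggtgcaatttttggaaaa

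U1 copies held the most counts, but only with Gm22513 included: without that gene U1 held 20.3% (19.2 to 21.4) and U6 23.98% (22.8 to 25.1). By blastn against a reference gene of each class, at 80% identity over at least 50% of it, 41 U1 genes held 1960 counts, 31.8% of the total (30.7 to 33.0). U6 followed with 161 genes and 1264 counts (20.5%), then U5 with 10 genes and 837 counts (13.6%), U2 with 13 genes and 566 counts (9.19%) and U4 with 11 genes and 470 counts (7.63%). The minor-spliceosome RNAs were represented by U12 with 254 counts (4.12%), U11 with 214 (3.47%) and U6atac with 67 (1.09%), and U7 held 182 (2.95%). U4atac had no reference and could not be found this way, so the minor-spliceosome counts may be incomplete. The remaining 31 genes, with 348 counts (5.65%), matched none of the references used, and Gm22710 held 206 of these. Whether Gm22710 is a U4atac gene was not tested. The intervals of U1 and U6 do not overlap, and neither do those of U6 and U5. By positions the order changed, since U6 held 40.2% of them (37.7 to 42.7) and U1 18.5% (16.5 to 20.5). A U6 gene held 7.85 counts on average, against 47.8 for a U1 gene and 83.7 for a U5 gene.

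A few genes carried most of the signal. Gm22513 alone held 890 counts, 14.4% (13.6 to 15.3), and the 20 highest genes held 65.1%. The median gene held 4 counts, 76 genes held a single count and 155 held 5 or fewer. After Gm22513 came Gm24265 (U4) with 298 summed counts, Gm25939 (U2) with 289 and Rnu12 with 249. Gm25682 (U1) and Rnu11 each had 214. Gm22710 had 206, Gm25099 (U5) 201, Gm25313 (U5) 197 and Rnu7 180. The other genes among the 20 highest were the U1 copies Gm25704 (166), Gm23511 (95), Gm23686 (86) and Gm22739 (74), the U5 copies Gm24871 (152), Rnu5g (132) and Gm23143 (78), the U4 copy Gm24407 (113), the U2 copy Gm22973 (109) and the U6atac gene Gm25541 (67). No U6 copy was among them: Gm25412, the highest, had 65 counts, 5.14% of its class, whereas Gm22513 held 45.4% of the U1 counts.

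**Figure D1:**
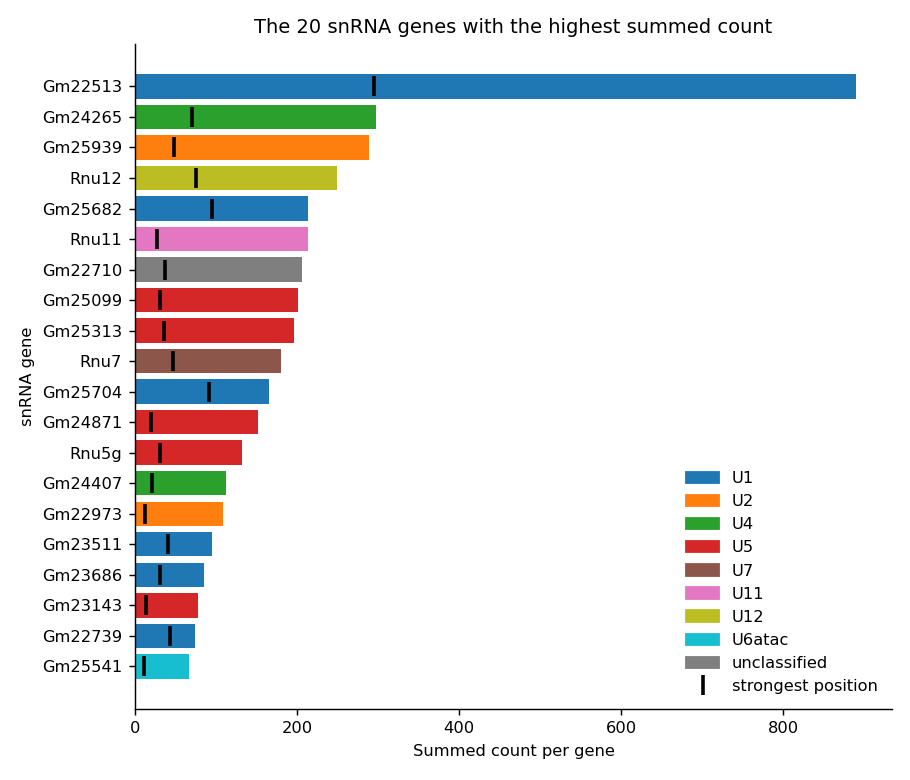
Summed count (horizontal axis) of the 20 snRNA genes with the highest sum, coloured by class, with a black tick at the count of the strongest position of each gene. Gm22513, at 890, stands above Gm24265, at 298, and its strongest position alone reaches 295.

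The U1 counts lay mainly at a pair of neighbouring bases. Numbering follows the class reference from its 5′ end, Rnu1a1 for U1. Bases named here are those at the listed position, which may be the crosslinked base or its neighbour. A29 held 640 counts from 12 genes and G28 held 462 from 13 genes, together 56.2% of the U1 counts (54.0 to 58.4). T22 followed with 136, C31 with 93 and T2 with 82. Apart from T2, at the 5′ end, these bases lie in the region of stem-loop I, the hairpin known to be bound by the U1-70K protein. The 10 bases from 22 to 31, the window with the most U1 counts, held 73.7% (71.7 to 75.6) on 6.10% of the bases. Since that window was chosen on these counts, its share is a description.

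The same pair led in separate U1 copies. In Gm22513 the base at offset 29 had a count of 295 and that at 28 had 255, the 2 strongest positions labelled snRNA (chr12:54696810 and chr12:54696809). In Gm25682 the values were 95 and 76. In Gm23511 they were 41 and 26, and in Gm23686 31 and 22. In Gm25704, whose 5′ part is shifted, the pair lay at offsets 33 and 32 with counts of 91 and 33. In Gm22739 it lay at offsets 30 and 29 with counts of 44 and 15. In each of these 6 copies the adenosine had the highest count and the guanosine before it the next.

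Other U1 copies had their counts elsewhere. Of 14 U1 genes with at least 20 counts, the share in bases 22 to 31 ran from 0% to 100% with a median of 83.8%. Rnu1a1 had 34 counts and none in that window, but none of its bases there is followed by 50 nt found once in the genome. Further copies, named here after their values were seen, had few there: Gm25818 had 2 of 61, Gm25189 2 of 20 and Gm22042 0 of 32. Of their bases with 50 nt left, 114 of 114, 94 of 114 and 21 of 115 were followed by sequence found once. The stretch ACTTACC, bases 3 to 9, by which U1 pairs with the 5′ splice site, held 73 counts or 3.74% (2.98 to 4.68), on 4.27% of the bases. Without Gm22513 it held 68 of 1062 counts, 6.40% (5.08 to 8.04). In Gm22513 these bases lie outside offsets 12 to 59. Among its bases with 50 nt left in the gene, only those are followed by 50 nt found once in the genome. Counts at thymidines made up 23.4% of the U1 counts (21.6 to 25.3), on 26.6% of the bases of these genes. Gm22513 carried the lower value, with 17.98% (15.6 to 20.6), whereas the other U1 copies had 27.9% (25.3 to 30.7).

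U6 counts were spread over many copies but met at shared bases. T40 held 151 counts from 40 genes, T23 held 133 from 43 genes, T26 held 97 from 29 genes and C25 held 86 from 24 genes. The richest 10 bases, 19 to 28, held 40.9% of the U6 counts (38.2 to 43.6). T40 is the base before ACAGAG, the stretch (bases 41 to 46) that pairs with the 5′ splice site. ACAGAG itself held 116 counts, 9.29% (7.81 to 11.03) on 5.61% of the bases. In Gm25412, counts of 21 at G46, 10 at T23 and 7 at T26 led. Gm25412 thus held most of the class counts at G46, which were 29 in all. Its substitution against Rnu6, the U6 reference, is A47T, at the base after G46, and it had no count beyond G46. All 65 of its counts lay at bases followed by sequence found once in the genome, as were 91 of its 107 bases. Whether the count at G46 is a trait of this copy or follows from where its reads can be placed was not tested. Among 18 U6 genes with at least 20 counts, the share in bases 19 to 28 had a median of 48.1% and ran from 0% to 100%.

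U5, U11 and U7 had their highest counts at their Sm sites. In U5, T89 held 111 counts, A88 held 106 and T91 held 100, each from 6 genes, at the start of the Sm-site motif (bases 88 to 95). Rnu5g had counts of 31 at offset 89, 30 at 91 and 24 at 88. Gm25313 had 36 at offset 88 and 34 at each of 89 and 91, Gm25099 had 31, 18 and 18 at 89, 88 and 91, and Gm24871 had 20 at 88, 14 at 91 and 11 at 89. The 4 copies thus had the same leading bases, although T80 reached 11 in Gm24871 as well. T80 and T81 held 51 and 40. A further group of U5 counts lay in loop 1, which holds the exons in place during splicing: CTTTTAC, bases 39 to 45, held 137 counts, 16.4% (14.0 to 19.0) on 6.03% of the bases. In Gm23143 a loop base, offset 40, led with a count of 14.

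In Rnu11, offsets 89 and 90 within its Sm motif (88 to 95) had counts of 28 and 19. The first 7 bases of Rnu11, AAAAAGG, which recognise the 5′ splice site of minor introns, held 34 of 214 counts, 15.9% (11.6 to 21.4). In Rnu7 the base at offset 27 had a count of 47, offset 26 had 17 and offset 23 had 14, all within ATTTGTC, its Sm motif at 22 to 28. Within 10 nt of an Sm motif, with the forms of U5, U11 and U7 included, lay 63.8% of U5 counts (60.5 to 67.0), 46.3% of U11 counts (39.7 to 52.9) and 73.6% of U7 counts (66.8 to 79.5). The bases of the same genes lay that near at 25.8%, 20.9% and 29.2%. In U1 the same share was 4.90% on 11.9% of the bases, in U2 6.18% on 11.5% and in U4 0.638% on 5.92%. Gm25939 held 289 of the 566 U2 counts and had none within 10 nt of the U2 motif (99 to 105). Of its 191 bases, 98 were followed by sequence found once in the genome. The U4 motif (119 to 125) lies close to the 3′ end of its 141-base reference. Whether reads from these stretches could be placed was not tested, so these shares do not show whether counts avoid the Sm site. Over all snRNA counts it was 15.04% (14.2 to 15.96), against 10.4% of the gene bases. With the motif list first planned, which lacks the forms of U5, U11 and U7, it was 2.60% (2.23 to 3.02), against 9.12% of the bases.

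U2, U4 and U12 had their peaks away from the Sm site. In U2, A30 held 61 counts, A75 held 56 and T37 held 40. In Gm25939 those bases had counts of 49, 27 and 22, and in Gm22973 12, 13 and 11. Both copies had counts at all 3 bases, in a different order. GTAGTA, bases 33 to 38, which pairs with the branch point, held 76 counts, 13.4% (10.9 to 16.5) on 3.14% of the bases. Without Gm25939 it held 22 of 277, 7.94% (5.30 to 11.7). In U4, C69 held 92 counts, 71 of them in Gm24265 and 21 in Gm24407, and T53 held 36 from 6 genes. In Rnu12, offsets 118 and 119 had counts of 76 and 47, in its 3′ part and beyond its Sm motif (75 to 81). AAGGAA, bases 20 to 25 of U12, which pairs with the branch point of minor introns, held 0 of 254 counts. By counting error alone that share may reach 1.18% by a limit of 3 counts and 1.49% by the Wilson interval. Rnu12 held 249 of these counts and had none at any base from 10 to 55. Of its 151 bases, 96 were followed by sequence found once in the genome, as were 237 of its 249 counts. Whether reads from AAGGAA could be placed was not tested, so the 0 does not show that the element lacked contact. In the U6atac gene Gm25541, offset 19 had a count of 11, offset 17 had 10 and offset 7 had 9. In Gm22710 the highest counts were 37 at offset 43 and 30 at offset 42.

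**Figure D2:**
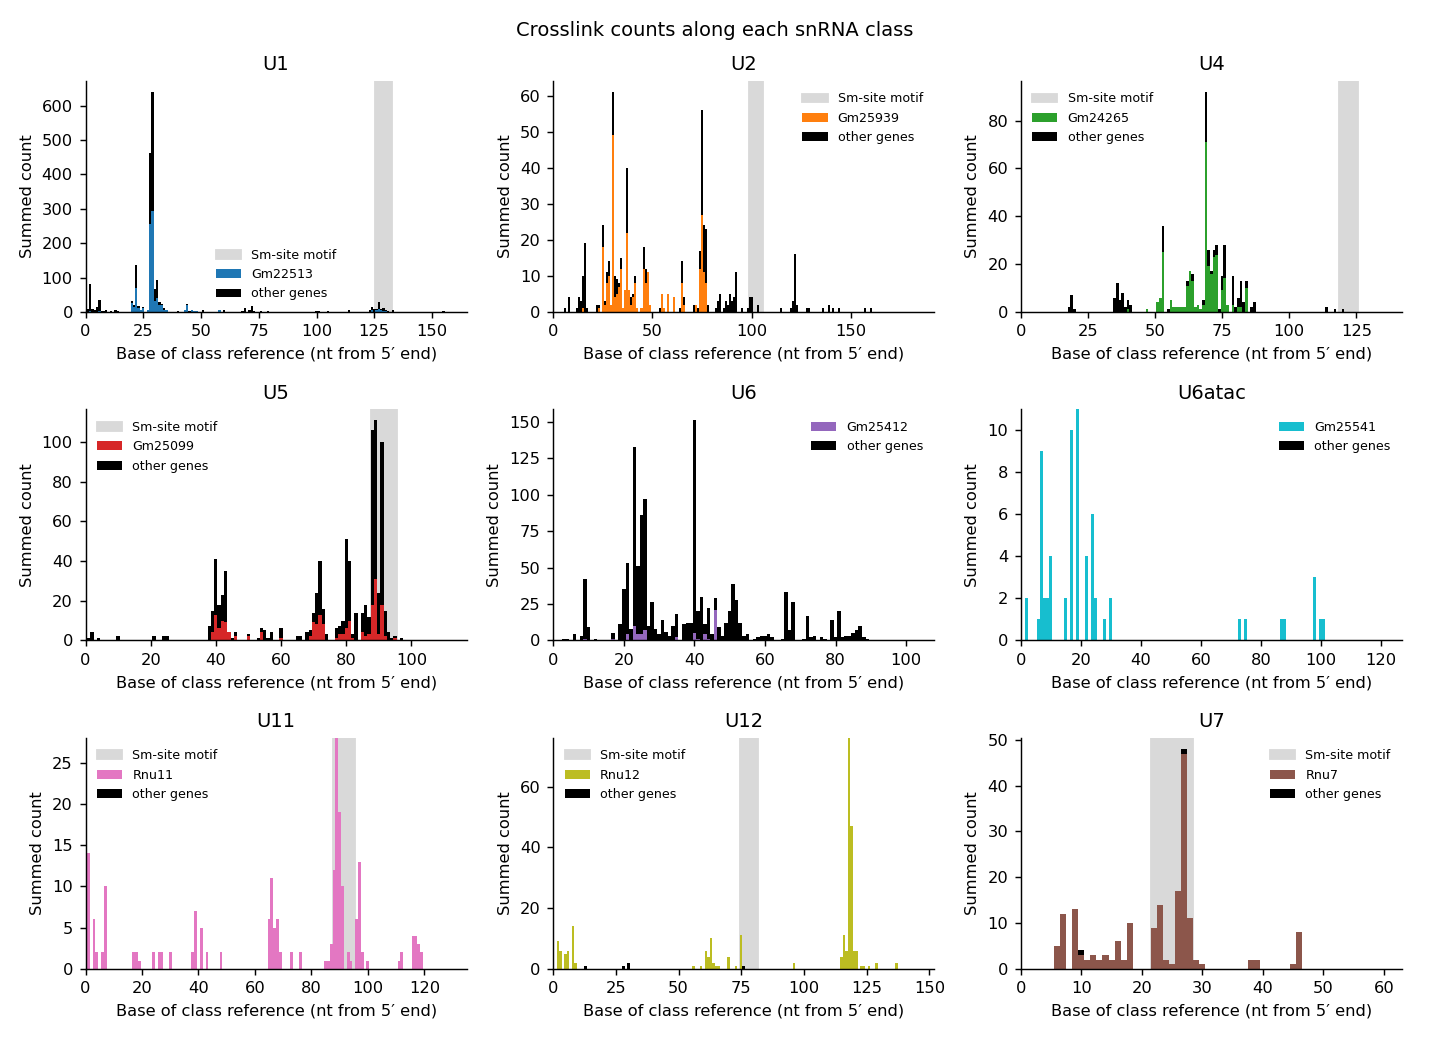
Summed count (vertical axis) at each base of the class reference (horizontal axis, nt from the 5′ end) for 9 snRNA classes, with the leading gene in colour, other genes stacked in black and the Sm-site motif shaded grey. U1 peaks at bases 28 and 29, whereas U5, U11 and U7 peak inside the shaded motif.

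Nearly all counts lay where the sequence that follows occurs once in the genome. For each position the 50 nt after it were searched in the chromosomes of the reference, on both strands. They occurred once for 6126 of the 6162 counts, 99.4% (99.2 to 99.6). With 30 nt the share was 58.6% (57.4 to 59.9). Among bases that have 50 nt left before the end of their gene, 4685 of 4721 counts, 99.2% (98.9 to 99.4), lay at a base followed by sequence found once. Of all bases of the 275 genes with 50 nt left, 80.1% were followed by such sequence. No source used here states how reads that match several places were treated, and the part of that setting in these values was not tested.

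The named U1, U2 and U6 genes show this most plainly. Rnu1b1, Rnu1b2, Rnu1b6, Rnu2-10 and Rnu6 had no listed position, and none of their bases with 50 nt left was followed by sequence found once. Rnu1a1 had 0 such bases of 114, and its 34 counts all lay closer to its 3′ end. Rnu6-ps2 had 55 such bases of 57 and still no position. In all, 5 of 11 genes with an Rnu symbol had a position, and 275 of 1383 GENCODE snRNA genes did. Of the 1108 genes without one, 90.3% had at least 1 base with 50 nt left that was followed by sequence found once. The share was 98.2% for the 275 listed genes. The median gene had 54 such bases in both sets.

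Gm22513 differs from Rnu1a1 by a single substitution, T60C (Rnu1a1 base, position in Rnu1a1 from its 5′ end, Gm22513 base). Among its bases with 50 nt left, those followed by 50 nt found once were the 48 from offset 12 to 59. These 48 held 852 of the 862 counts at bases with 50 nt left. At offsets 28 and 29 the next 30 nt occurred 23 times in the genome and the next 50 nt once. Reads too short to reach base 60 cannot be told apart from those of other copies. In Gm25682 all 114 bases with 50 nt left were followed by sequence found once, even the next 30 nt at offsets 28 and 29 occurred once, and the pair led there too. In 22 U1 genes at least 95% of the bases with 50 nt left were followed by sequence found once. There bases 22 to 31 held 70.8% of 548 counts (66.9 to 74.5), against 73.7% over all U1 genes. The highest count was again at base 29. These 548 counts are among those on which the window was chosen, so the shares are not independent. Gm25682, Gm23511 and Gm22739 held 192, 82 and 69 of the 388 counts in the window.

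The other classes differed in the share held by their windows in genes chosen by the same 95% rule. In 67 such U6 genes, bases 19 to 28 held 33.8% of 358 counts (29.1 to 38.8), and T40 led with 54. In 5 U2 genes bases 28 to 37 held 3.64% of 55 counts (1.003 to 12.3), against 29.3% over all U2 genes. In 9 U4 genes bases 68 to 77 held 1.69% of 59 counts (0.300 to 8.99), against 51.3% over all U4 genes, and in 4 U5 genes bases 83 to 92 held 19.6% of 56 counts (11.3 to 31.8), against 49.5%. The U5 window lies in the last 50 nt of the U5 reference, whereas the genes were chosen on bases before that stretch. The choice therefore says nothing about sequence found once in the U5 window. Most counts of the U2, U4 and U5 windows thus lay in copies outside this set. At the positions themselves the next 50 nt occurred once for 470 of 470 U4 counts, 834 of 837 U5 counts and 563 of 566 U2 counts. Only 192 of the 837 U5 counts had 50 nt left, and for the others the 50 nt ran past the end of the gene. In U7, U11 and U6atac genes all bases with 50 nt left were followed by sequence found once. Such bases held 39 of 182 U7 counts and 99 of 214 U11 counts.

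**Figure D3:**
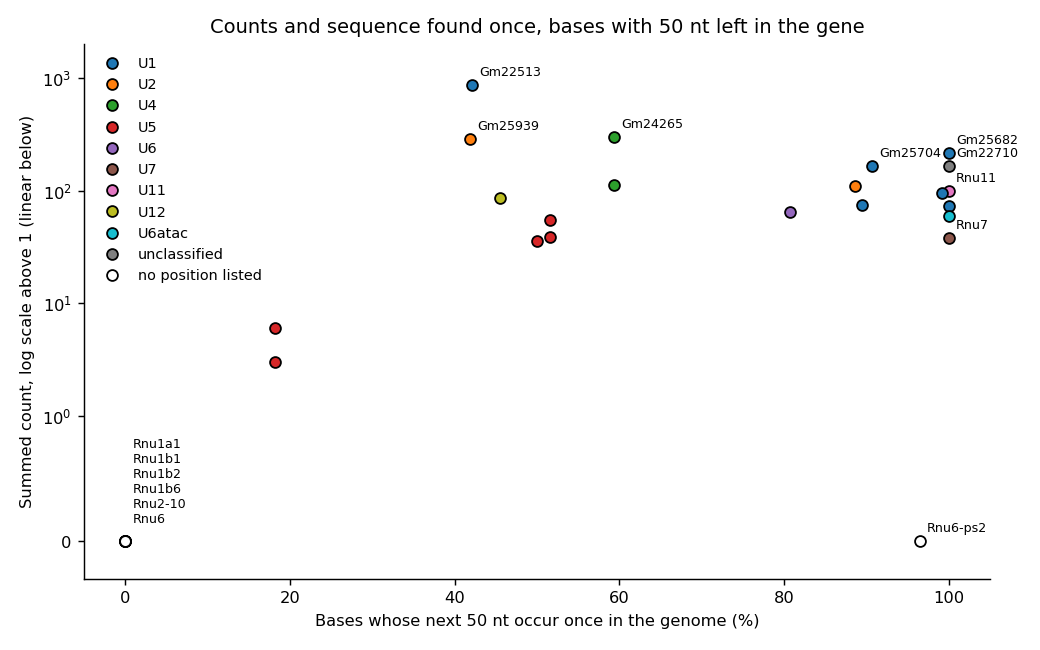
For bases with 50 nt left in the gene, the share followed by 50 nt found once in the genome (horizontal axis, percent) against their summed count (vertical axis, log scale above 1). Shown are the 20 highest genes, Gm25412 and every gene with an Rnu symbol. The genes at 0% on the horizontal axis, Rnu1a1, Rnu1b1, Rnu1b2, Rnu1b6, Rnu2-10 and Rnu6, all have 0 counts, and the white point at the right is Rnu6-ps2.

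Counts were denser in most listed snRNA genes than around them, and 4 of the 275 genes had as many or more counts per nt in the flanks. The contrast is partly set by the choice of genes, since each was listed for holding a count and the flanks were not. A gene with 1 count and empty flanks is denser by that choice alone, and genes without a position are left out. Every labelled position lay inside the GENCODE gene on its strand, and 9 positions with 15 counts lay opposite to an snRNA gene. U1 genes held 30.4 counts per 100 nt against 1.01 in the 200 nt on either side, and U6 genes held 7.43 against 0.0466. No count was listed in those flanks for 228 of the 275 genes. A protein-coding gene covered 55 genes on the same strand, with 879 counts (14.3%), Rnu7 inside Grcc10 and Gm23686 inside Cyp7b1 among them, and reads of a host pre-mRNA cannot be told apart there. The first 10 nt held 445 counts, 7.22% (6.60 to 7.89), on 8.17% of the bases. The last 10 nt held 7 counts, 0.114% (0.0550 to 0.234), on the same number of bases. A read that starts there holds at most 10 nt of the gene. Whether such reads could be placed was not tested, so the ends of the genes cannot be compared by these shares.

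In predicted folds, unpaired bases held most of the counts of several leading genes. RNAfold gave the minimum free energy fold of each RNA alone, without proteins or partner RNAs. In Gm22513, unpaired bases were 34.1% of the RNA and held 82.7% of the counts (80.1 to 85.04). In Rnu11 they were 40.3% and held 90.2% (85.5 to 93.5), in Rnu12 43.0% and 84.7% (79.7 to 88.7), and in Gm24265 50.4% and 71.8% (66.5 to 76.6). In Gm25939 they were 48.7% and held 52.6% (46.8 to 58.3), and in Gm25541 46.03% and 40.3% (29.4 to 52.3), so in these genes the interval covered the share of unpaired bases. The share of Gm22513 rests largely on offsets 28 and 29, which had 255 and 295 of its 890 counts. Its 34.1% is over all its bases, whereas 48 of its 114 bases with 50 nt left were followed by sequence found once.

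Few counts lay close to an AU-rich element. Within 20 nt of TATTTA, the core of that element, lay 3 positions with 4 counts, 0.0649% (0.0252 to 0.167), and within 50 nt lay 3.60% (3.17 to 4.10). The motif itself was scarce: 17 of the 275 genes had a base within 20 nt of it, motifs just outside the gene included. Within 20 nt lay 1.24% of gene bases. Over the whole list the share of counts within 20 nt was 14.4% (14.3 to 14.5), and for positions labelled snoRNA it was 0.458% (0.331 to 0.633). Thymidine, standing for uridine, a base that crosslinks readily, held 41.9% of snRNA counts (40.7 to 43.2), against 27.2% of the gene bases and 56.3% of all list counts. Adenosine held 25.5% (24.5 to 26.6), against 11.01% of all list counts. Without Gm22513 the share at thymidine was 45.96%. The highest shares at thymidine were 66.5% in U5 and 65.4% in U7.

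snRNA positions passed the authors' threshold more often than the list as a whole. An authors' FDR below 0.05, a deposited score of unstated randomisation, was listed for 840 of 1441 positions, 58.3% (55.7 to 60.8), against 30.7% of all positions. It was 38.1% for positions labelled snoRNA (36.1 to 40.005), 37.7% for misc_RNA (32.9 to 42.9) and 23.2% for rRNA (16.4 to 31.8). At least 1 such position lay in 124 of the 275 genes. Counts of 10 or more stood at 124 positions, 8.61% (7.26 to 10.2), against 0.673% of all positions, 5.44% of snoRNA and 10.99% of misc_RNA positions. The mean count was 4.28, against 1.76 over the list, and 10.96% of snRNA positions had no other position within 15 nt, against 65.2%. These shares describe 1 pooled list, and neighbouring positions of a gene are not independent.

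**Figure D4:**
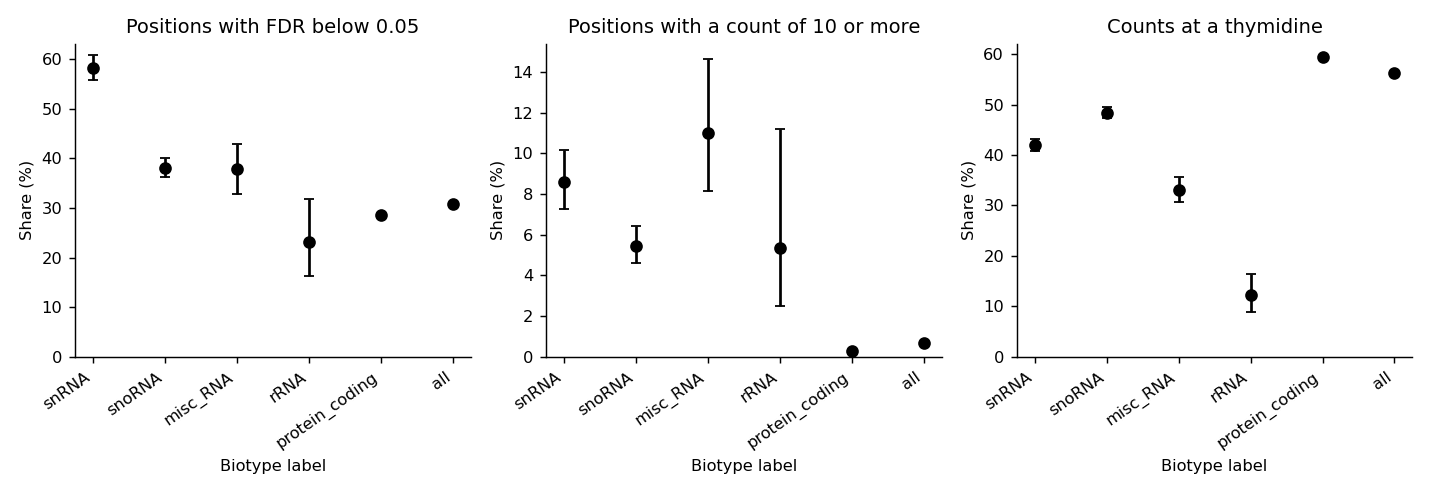
Share (vertical axes, percent) of positions with an authors' FDR below 0.05, of positions with a count of 10 or more and of counts at a thymidine, by biotype label (horizontal axis), with bars for 95% Wilson intervals. snRNA stands at 58.3% in the first panel, against 30.7% for all positions.

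mRNAs of the proteins that work with these RNAs were also in the list. Of 78 spliceosome and snRNP biogenesis genes, 71 had a position (91.03%, against 53.5% of all protein-coding genes), 38 had a position below the FDR threshold (48.7%) and 9 had one in the 3′ UTR (11.5%). Their median summed count was 14.5, against 1 over all protein-coding genes. Over all 21924 GENCODE protein-coding genes these shares were 34.3% for any such position and 9.59% for the 3′ UTR. Among the 12 U2 proteins Sf3b1, a protein at the branch point, had 373 summed counts, and Sf3b3 had 139 and Sf3b2 65. Of the 3 U1 proteins, Snrnp70, which encodes U1-70K, had 223 counts with 9 positions below the threshold in its 3′ UTR, and Snrpa and Snrpc had 11 each. Of the 15 tri-snRNP proteins, Prpf6 had 87, Prpf8 86 and Snrnp200 78. Of the 8 Sm proteins, Snrpb had 31, Snrpe 21 and Snrpd1 16, and none had a 3′ UTR position below the threshold. Of the 7 LSm proteins, which hold U6, Lsm6 had 12, Lsm3 8 and Lsm4 5. Of the 9 minor-spliceosome proteins, Snrnp48 had 74, Rnpc3 63 and Pdcd7 25. Of the 24 biogenesis genes, Snapc3 had 93, Ncbp1 68 and Ints9 52. For comparison, Zfp36l1 had 257, Zfp36 169 and Zfp36l2 154 summed counts. None of these sums is adjusted for transcript length or abundance.

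Markers of the cell types a thymus holds were also looked up. Their counts depend on crosslinking as well as on expression, so they do not measure the purity of the cells. Of 10 thymocyte genes 9 were listed, with 4766 summed counts, led by Rag1 with 2270. Markers of B cells had 10 summed counts, of erythroid cells 10, of myeloid cells 18 and of thymic epithelium 11. Those of stroma and endothelium had 313, of which Pecam1 had 301.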

How the data were processed

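The deposited list gives a count per position with the strand as its sign, called counts in the header and treated here as a score because its making is not recorded. The extended value and the FDR of the authors are deposited scores, and the deposited p-value was not used. The submitters' processing notes name Bowtie and the build GRCm38, with no role or setting. Positions count from 0 in the list, so 1 was added. No source used here states whether a listed position is the cDNA start or the base before it. Positions were otherwise used as deposited, and the bases named and the shares by base depend on that choice. The list sums to 814493 counts over an unknown share of the 3 libraries, so depth per library is unknown.

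The members and all lists were chosen with earlier results of these data known. Classes came from blastn 2.17.0, folds from RNAfold 2.7.2, sequences from samtools 1.23.1. The class and copy searches were tested on simulated data. Named are listed genes with an Rnu symbol, the 20 with the highest sum, class leaders, genes of the 10 strongest positions, 3 members of each protein list, and the ZFP36 family. The fold and copy searches, the short elements, the windows, the RefSeq product classes, the values of elements and thymidine without the leading gene and the wider Sm list were added after the data were seen. No test was possible on 1 pooled list. The sequences of the leading U5 and U6 copies are not reported here.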

Additional observations from a re-analysis of the deposited data

How the results depend on the processing

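No paired analysis was possible because the list pools its libraries and has no library column; for the same reason WT could not be set against DCKO and no library could be left out. Taking the reference biotype in place of the authors' label changed no value. Other choices moved shares by more than their counting interval, in most cases because another set of positions or weights was used. Keeping only positions with an authors' FDR below 0.05, the snRNA share of the list was 1.38%, the U1 share 36.1%, the share near an Sm motif (planned list) 1.14%, near TATTTA 0%, in Gm22513 17.1% and in the first 10 nt 4.13%. With each position counted once these were 0.312%, 18.5%, 4.44%, 0.208%, 2.98% and 10.4%. With counts of 3 or more they were 2.84%, 35.7%, 1.97%, 0%, 17.7% and 6.47%, the share past the FDR threshold was 76.8% and the share at thymidine 43.4%. Without Gm22513 the snRNA share was 0.648%, the U1 share 20.3%, below the 23.98% of U6, the share at thymidine 45.96%, the share of the next leading gene 5.65% and the first 10 nt 8.27%. Without its strongest position they were 0.721% for snRNA, 28.4% for U1, 44.03% at thymidine and 10.1% in Gm22513. The U1 share was 30.1% at 90% identity and 26.2% with RefSeq product names. The share past the FDR was 54.8% at a threshold of 0.01 and 79.4% when weighted by count. An Sm motif within 20 nt gave 4.17% and the wider list 15.04%. TATTTA within 50 nt gave 3.60%. The outer 5 nt at the 5′ end held 3.26%. Depth limits what rare copies show, since 76 genes rest on a single count, and no replicate spread is known.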
